A study of Drosophila melanogaster with 6 samples.

Results

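The genes described here encode the subunits of the proteasome and of the CCT chaperonin. They were the genes whose probe set on the array carried exactly 1 platform symbol, of the form Prosalpha, Prosbeta, Rpn or Rpt followed by a digit, or CCT1 to CCT8. The rule found 48 genes among the 11982 named genes, each with 1 probe set: 26 constitutive proteasome subunits, 14 paralogs whose symbols carry an added T or R, and 8 CCT subunits. The measurements came from whole heads of mated female Drosophila melanogaster of genotype w1118, a white-eyed laboratory strain, on 6 Affymetrix Drosophila Genome 2.0 arrays. In the high fat group, 3 RNA samples came from females kept for 7 days on medium with 20% (w/v) coconut oil, and in the normal diet group 3 came from females kept for 7 days on the same medium without the oil. All females had been mated for 48 hours with isogenic males, the diets were given at 23 degrees C in most cases, and each sample pooled 25 to 50 heads. The series' design text calls the 3 samples of a diet biological replicates, and the array number limits the precision of every value below.

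The proteasome is the protease that breaks down proteins tagged with ubiquitin. Its barrel-shaped core particle has outer rings of alpha subunits, which gate the entrance, and inner rings of beta subunits, which cut the chain. A regulatory particle sits on the core: its base holds a ring of ATPases that unfold the substrate, together with subunits that receive it, and its lid removes the ubiquitin. In flies many subunits have a second gene copy that is known for expression in the testis. The CCT chaperonin is an unrelated double ring of 8 different subunits in which newly made actin, tubulin and other proteins fold.

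Every constitutive proteasome subunit and every CCT subunit was above background on all 6 arrays, and no gene of either complex passed the test between the diets. In the values as deposited, high fat means lay below normal diet means in 26 of 26 proteasome subunits and 8 of 8 CCT subunits, although centring each array on its median, which raises every change by 0.269, left 6 of 26 and 8 of 8 lower. The median log2 change, high fat minus normal diet, was -0.21 for the proteasome and -0.47 for CCT, against -0.03 over all 18769 tested probe sets, 54.3% of which had a lower high fat mean (54.9% of those above background on all 6 arrays). These medians correspond to 0.862 and 0.721 times the normal diet signal. Limma called 0 of the 48 genes at an adjusted p under 0.05, and 0% of all tested probe sets. At an unadjusted p under 0.05 there were 0 proteasome subunits, 4 CCT subunits, all lower, and 2 paralogs, 1 lower and 1 higher, where 4.91% of all probe sets were lower and 2.95% higher. Without normal diet replicate 2 these counts became 7 proteasome and 8 CCT subunits, and they were 0 and 0 with any 1 of the other arrays left out, with median centring and with a replicate block. The 3 high fat values lay below the 3 normal diet values in 15 of 26 proteasome subunits and 5 of 8 CCT subunits, against 9.23% of all probe sets and 11.3% of those above background on all 6 arrays.

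The differences between the diets were widest against normal diet replicates 1 and 3. Over the 26 proteasome subunits, the median log2 signal relative to each gene's own mean over the 6 arrays was -0.11, -0.13 and -0.09 on high fat replicates 1, 2 and 3, against 0.10, -0.04 and 0.26 on normal diet replicates 1, 2 and 3. For CCT the medians were -0.23, -0.26 and -0.27 on the high fat arrays, against 0.33, -0.13 and 0.53 on the normal diet arrays. Normal diet replicate 2 thus lay nearer to the high fat arrays than to the other arrays of its own diet in both lists. Normal diet replicate 3 was the highest array for 25 of 26 proteasome subunits and for 8 of 8 CCT subunits. It was also the highest array for 4600 of all 18769 tested probe sets, more than any other array. Of the 10704 probe sets above background on all 6 arrays, it was the highest array for 2775.

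**Figure D1:**
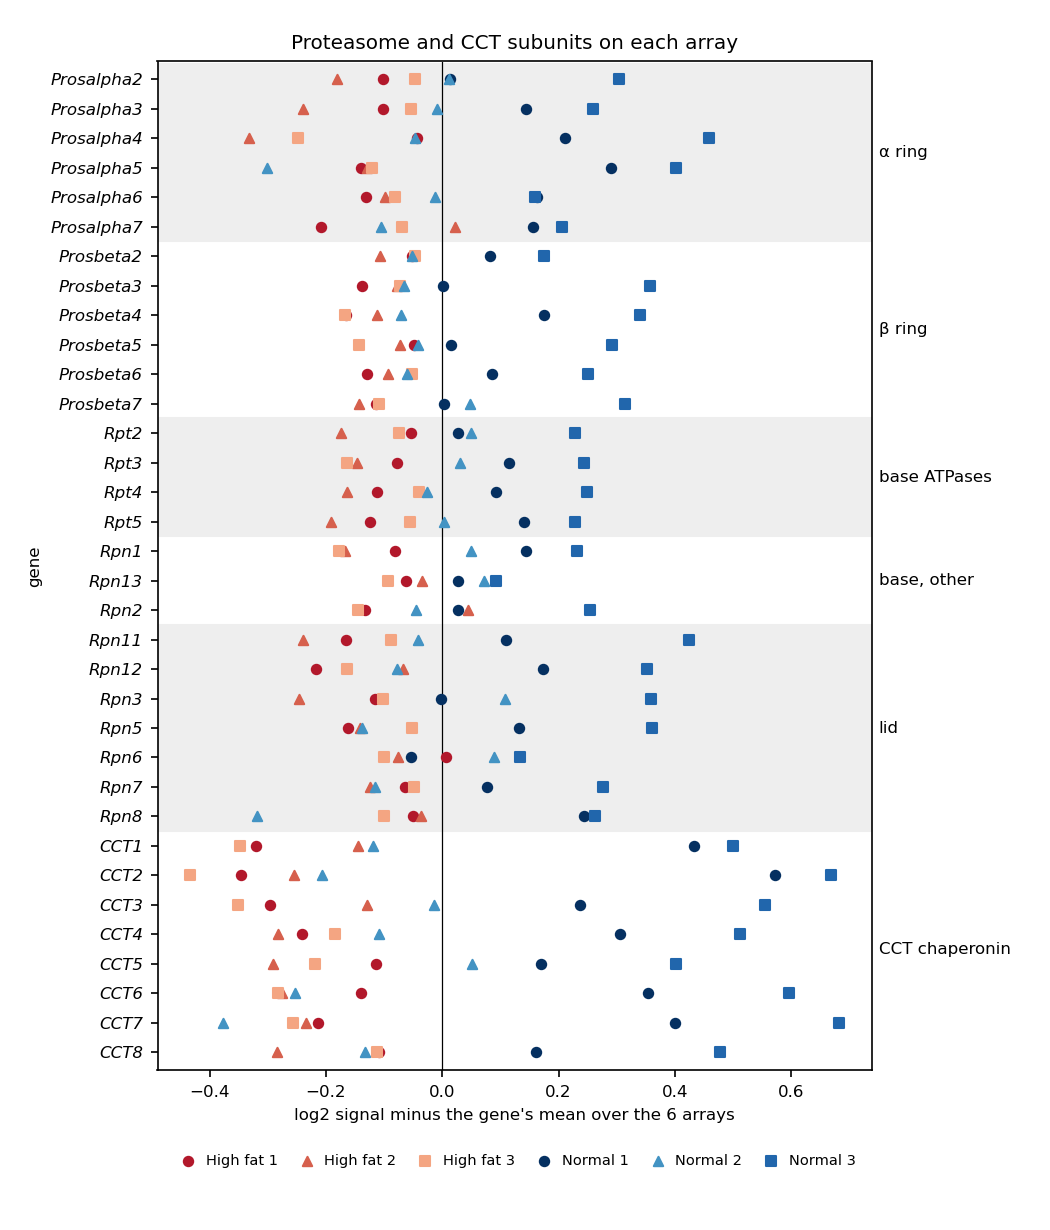
Log2 signal of each constitutive proteasome and CCT subunit minus that gene's mean over the 6 arrays (x axis, log2 units); each row is a gene, each point an array, red for high fat and blue for normal diet, with shapes for replicates 1, 2 and 3. The high fat points sit close together, and normal diet replicates 1 and 3 extend to the right, to medians of 0.33 and 0.53 in the CCT rows and of 0.10 and 0.26 in the proteasome rows.

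The replicates of the high fat diet were tighter than those of the normal diet in all 34 of these genes. In the proteasome the SD over the 3 arrays of a diet had a median of 0.05 on the high fat diet and 0.17 on the normal diet. In CCT it was 0.09 on the high fat diet and 0.33 on the normal diet. The share of all probe sets with this order was not counted. SDs of list medians, which are not the SDs of single genes, were in the same order in several other lists. List medians of the neuron, photoreceptor, muscle, fat body and germ line markers described below had SDs of 0.03 to 0.06 on the high fat diet. On the normal diet they were 0.14 to 1.34. Testis markers went the other way, with 0.29 against 0.15. For the list of proteasome assembly and regulator genes described below, the SDs were nearly equal, at 0.054 and 0.057. For the median of all tested probe sets the SDs were 0.027 and 0.030. Set against normal diet replicate 2 alone, the high fat mean was lower in 21 of 26 proteasome subunits, with a median difference of -0.09, and in 6 of 8 CCT subunits, with a median of -0.13. Against replicate 1 the medians were -0.22 and -0.56, and against replicate 3 they were -0.37 and -0.79. Over all tested probe sets, the median differences from normal diet replicates 1, 2 and 3 were -0.033, -0.017 and -0.076. The high fat mean was below normal diet replicate 2 in 9776 of 18769 tested probe sets. With normal diet replicate 3 left out of the fit the median changes were -0.13 for the proteasome and -0.33 for CCT, and with normal diet replicate 2 left out they were -0.28 and -0.68.

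Signal from genes of the female germ line also differed between these arrays. Of 19 measured germ line and ovary markers, 18 had a lower high fat mean, with a median change of -2.55, and 8 of the 19 were above background on all 6 arrays. Their summed signal ranged from 4961 to 5305 on the high fat arrays and from 6120 to 20087 on the normal diet arrays, where replicate 1 had 15855, replicate 2 had 6120 and replicate 3 had 20087. Most of the high fat sum came from gus and stau, the brightest 2 markers. Without them, a choice made after the values were seen, the sums were 504, 465 and 540 on high fat replicates 1, 2 and 3, against 10592, 1886 and 14512 on normal diet replicates 1, 2 and 3, so that normal diet replicate 2 lay between the high fat arrays and the other arrays of its diet. The markers yl, zpg and bcd were below background on all 3 high fat arrays and above it on all 3 normal diet arrays, vas was below it on all 6, and osk, the germ plasm gene, was above it on 1 high fat array. On normal diet replicate 2 osk still reached 8.70, against 10.70 and 11.05 on replicates 1 and 3 of that diet. Markers of 3 head tissues were in the opposite order. A higher high fat mean was found in 8 of 8 measured neuron markers, 7 of 7 photoreceptor markers and 6 of 7 muscle markers. The medians were 0.25, 0.30 and 0.25, and each of these genes was above background on all 6 arrays. Each of these lists held 10 genes, some of which were not measured. Among all 18769 tested probe sets, 8580 had a higher high fat mean, as did 4830 of the 10704 above background on all 6 arrays. The summed neuron signal ranged from 21338 to 21869 on the high fat arrays and from 17049 to 19874 on the normal diet arrays, the photoreceptor signal from 103896 to 108014 against 87681 to 99964, and the muscle signal from 26089 to 28990 against 21363 to 23388. Of 6 fat body markers, 3 were lower and 3 higher on the high fat diet, with a median change of 0.058 and 5 above background on all 6 arrays. Their summed signal overlapped, at 100820 to 108669 on the high fat arrays and 87759 to 114132 on the normal diet arrays. The part of these tissue differences in the proteasome and CCT values was not tested. For the head tissues, fewer cells of a type and less RNA per cell cannot be told apart in whole heads. Where the germ line signal in these head samples came from was not tested.

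**Figure D2:**
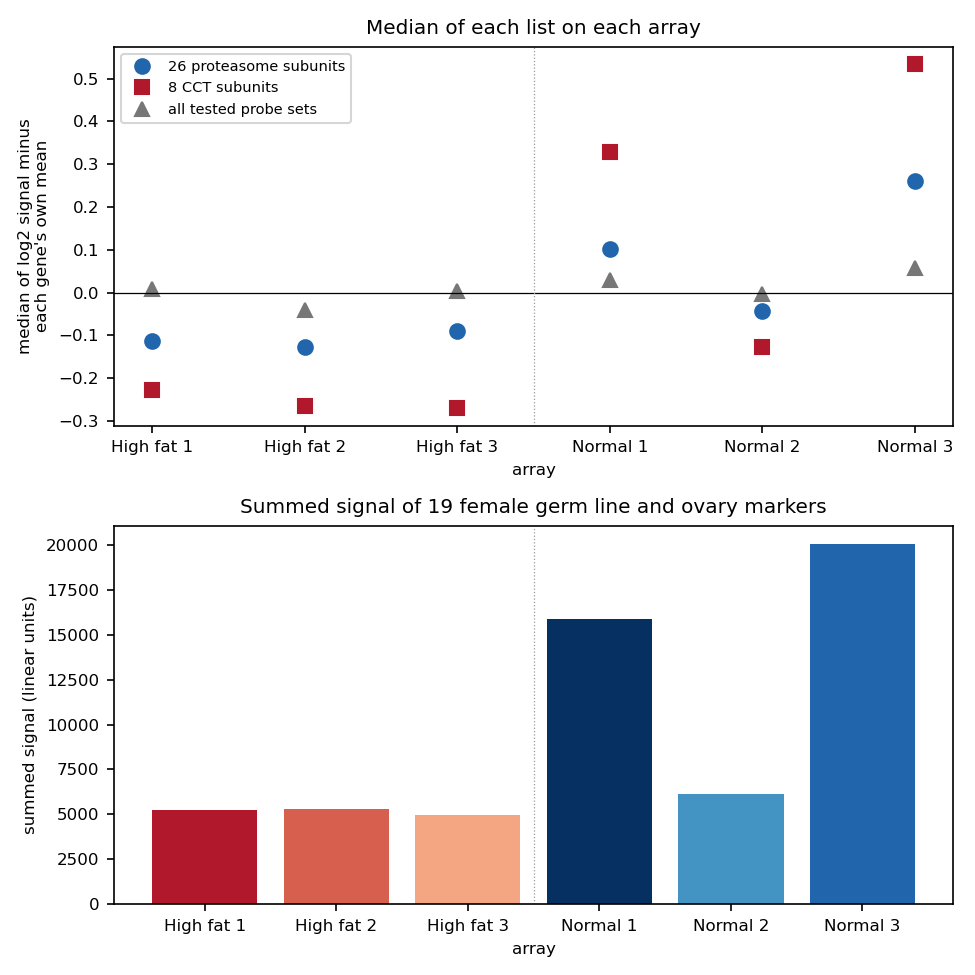
Upper panel, the median over 26 proteasome subunits, 8 CCT subunits and all tested probe sets of log2 signal minus each gene's own mean, by array; lower panel, the summed linear signal of 19 female germ line and ovary markers, by array. The arrays with the most germ line signal, normal diet replicates 1 and 3, are also the highest for both complexes.

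On each array 65.3% to 70.0% of probe sets lay above background. Pearson correlations of log2 signal between arrays, across probe sets that are not independent replicates, ranged from 0.939 to 0.955. With the high fat arrays, normal diet replicate 2 correlated at 0.952 to 0.955, and normal diet replicates 1 and 3 at 0.939 to 0.943. Over all probe sets, normal diet replicate 2 was thus nearer to the high fat arrays than normal diet replicates 1 and 3 were. Its correlations with those replicates are not given here. The actin control Act5C had 20.4 times as much signal at its 3' end as at its 5' end on high fat replicate 2, and 10.5 to 13.2 times elsewhere; this ratio grows as RNA degrades. Without that replicate the median changes were -0.21 for the proteasome and -0.46 for CCT.

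In the alpha ring, 6 subunits were measured and their changes ran from -0.42 to -0.17. Prosalpha4 (α4) measured 10.23, 9.94 and 10.03 on the high fat arrays, against 10.49, 10.23 and 10.74 on the normal diet arrays, a log2 change of -0.42 (SE 0.18, limma adjusted p = 0.610). Its normal diet replicate 2 stood level with high fat replicate 1, so the diets overlapped. Prosalpha3 gave 10.86, 10.72 and 10.90 on the high fat diet, against 11.10, 10.95 and 11.22 on the normal diet, and its diets did not overlap (-0.26, SE 0.13, adjusted p = 0.613). Prosalpha5 was almost constant at 11.01, 11.02 and 11.03 on the high fat diet, against 11.44, 10.85 and 11.56 on the normal diet. Its lowest value of all 6 was thus a normal diet array, and its change of -0.26 had an SE of 0.22. Prosalpha7 had the smallest change of the ring, with 10.48, 10.71 and 10.62 against 10.85, 10.59 and 10.90 on the normal diet (-0.17, SE 0.14). Prosalpha2 and Prosalpha6 lay between, at -0.22 and -0.21, each without overlap of the diets. A probe set that carries the 2 symbols Prosalpha1R and Prosalpha1 was outside the rule, and it gave 11.81, 11.72 and 11.79 on the high fat diet, against 11.94, 11.89 and 12.23 on the normal diet.

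In the beta ring the differences ran from -0.30 to -0.14 over 6 subunits. Prosbeta4 (β4), with the widest difference, measured 10.91, 10.96 and 10.90 on the high fat arrays, against 11.25, 11.00 and 11.41 on the normal diet arrays (-0.30, SE 0.15, adjusted p = 0.612). Prosbeta7 gave 11.28, 11.25 and 11.28, against 11.39, 11.44 and 11.70 on the normal diet (-0.24, SE 0.13). Prosbeta3 gave 11.12, 11.18 and 11.19, against 11.26, 11.19 and 11.62 on the normal diet (-0.19, SE 0.15). In these 3 genes the diets did not overlap, although in Prosbeta3 normal diet replicate 2 cleared the highest high fat value only narrowly. Prosbeta2, the subunit with trypsin-like activity, had the narrowest difference of the ring, with 11.14, 11.09 and 11.15 on the high fat diet, against 11.28, 11.15 and 11.37 on the normal diet (-0.14, SE 0.12). The chymotrypsin-like subunit Prosbeta5 was at -0.18 without overlap, and Prosbeta6, which has no protease site of its own, was at -0.18 with overlap.

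All 4 measured ATPases of the base had high fat values below every normal diet value, with changes between -0.26 and -0.20. Rpt3 measured 10.45, 10.38 and 10.37 on the high fat diet, against 10.65, 10.56 and 10.77 on the normal diet (-0.26, SE 0.12, adjusted p = 0.610). Rpt5 had 10.59, 10.52 and 10.66 on the high fat diet, against 10.85, 10.71 and 10.94 on the normal diet (-0.25, SE 0.12). These 2 ATPases carry the tails that dock into the alpha ring and help to open its gate. Rpt4 followed with 10.75, 10.70 and 10.83, against 10.96, 10.84 and 11.11 on the normal diet (-0.21, SE 0.13). Rpt2, which also has such a tail, had 10.28, 10.15 and 10.26, against 10.36, 10.38 and 10.56 on the normal diet (-0.20, SE 0.12). The gap between the diets was narrow in Rpt4, where normal diet replicate 2 lay just over high fat replicate 3.

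Among the other base subunits, Rpn1, the scaffold on which ubiquitin shuttle proteins dock, had the smallest p of the constitutive proteasome genes. It measured 9.87, 9.78 and 9.78 on the high fat arrays, against 10.10, 10.00 and 10.18 on the normal diet arrays, a log2 change of -0.28 (SE 0.11, adjusted p = 0.610). The ubiquitin receptor Rpn13 had 10.57, 10.60 and 10.54, against 10.66, 10.71 and 10.73 on the normal diet (-0.13, SE 0.10), and neither gene's diets overlapped. Rpn13 was also the member in which the normal diet arrays agreed most closely, with an SD of 0.03 on each diet. Rpn2, the second large scaffold, overlapped between the diets, with 10.71, 10.89 and 10.70 on the high fat diet, against 10.87, 10.80 and 11.10 on the normal diet (-0.16, SE 0.14).

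The lid held both large and small differences, from -0.33 to -0.11 over 7 subunits. Rpn11, the deubiquitinating enzyme of the lid, measured 10.70, 10.62 and 10.78 on the high fat diet, against 10.97, 10.82 and 11.29 on the normal diet (-0.33, SE 0.16, adjusted p = 0.612). The structural subunit Rpn3 had 10.29, 10.16 and 10.30, against 10.41, 10.51 and 10.77 on the normal diet (-0.31, SE 0.14). Neither of these 2 overlapped between the diets. Rpn12, another structural subunit, did overlap, with 10.08, 10.23 and 10.13 on the high fat diet, against 10.47, 10.21 and 10.64 on the normal diet (-0.30, SE 0.15). Rpn6, which clamps the lid to the core, had the smallest change of all constitutive subunits, with 11.95, 11.86 and 11.84, against 11.89, 12.03 and 12.08 on the normal diet (-0.11, SE 0.11). Rpn8, the partner of Rpn11 in the lid, was at -0.12 with the widest interval of the proteasome on its upper side, to 0.37 (95%, unadjusted). Rpn5 and Rpn7 were at -0.24 and -0.16, and like Rpn8 they overlapped between the diets. The 95% interval of the change, unadjusted, included 0 in 26 of 26 constitutive subunits.

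The 8 chaperonin subunits had wider differences than any proteasome subunit but Prosalpha4, -0.69 to -0.34. No test of CCT against the proteasome was made. CCT2 was at the wide end, with 10.94, 11.03 and 10.85 on the high fat diet, against 11.86, 11.08 and 11.95 on the normal diet, so that the high fat signal was 0.620 times that of the normal diet (-0.69, SE 0.27, adjusted p = 0.610 by limma). CCT1 had 9.78, 9.96 and 9.76, against 10.54, 9.99 and 10.61 on the normal diet (-0.54, SE 0.21, adjusted p = 0.610). For CCT1 and CCT2 alike, normal diet replicate 2 cleared the highest high fat value only narrowly. CCT3 had 9.34, 9.51 and 9.29, against 9.87, 9.62 and 10.19 on the normal diet (-0.52, SE 0.18, adjusted p = 0.610). CCT5 had 10.34, 10.17 and 10.24, against 10.63, 10.51 and 10.86 on the normal diet (-0.41, SE 0.14, adjusted p = 0.610). Of the CCT genes, CCT5 had the smallest p and the lowest spread on the normal diet, with an SD of 0.18. Its normal diet replicate 2 lay well clear of the high fat arrays. CCT8 had the smallest change, with 10.08, 9.91 and 10.08, against 10.35, 10.06 and 10.67 on the normal diet (-0.34, SE 0.19), and its diets overlapped. CCT4, CCT6 and CCT7 were between -0.47 and -0.46. The diets overlapped in CCT6 and CCT7 but not in CCT4, and in CCT7 normal diet replicate 2, at 9.99, was the lowest of all 6 arrays. The probe sets of CCT1, CCT2 and CCT3 are of a type whose probes may match more than 1 transcript. So are those of Prosbeta5, Prosbeta7, Rpn6, Rpn13 and the paralog Rpn12R.

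**Figure D3:**
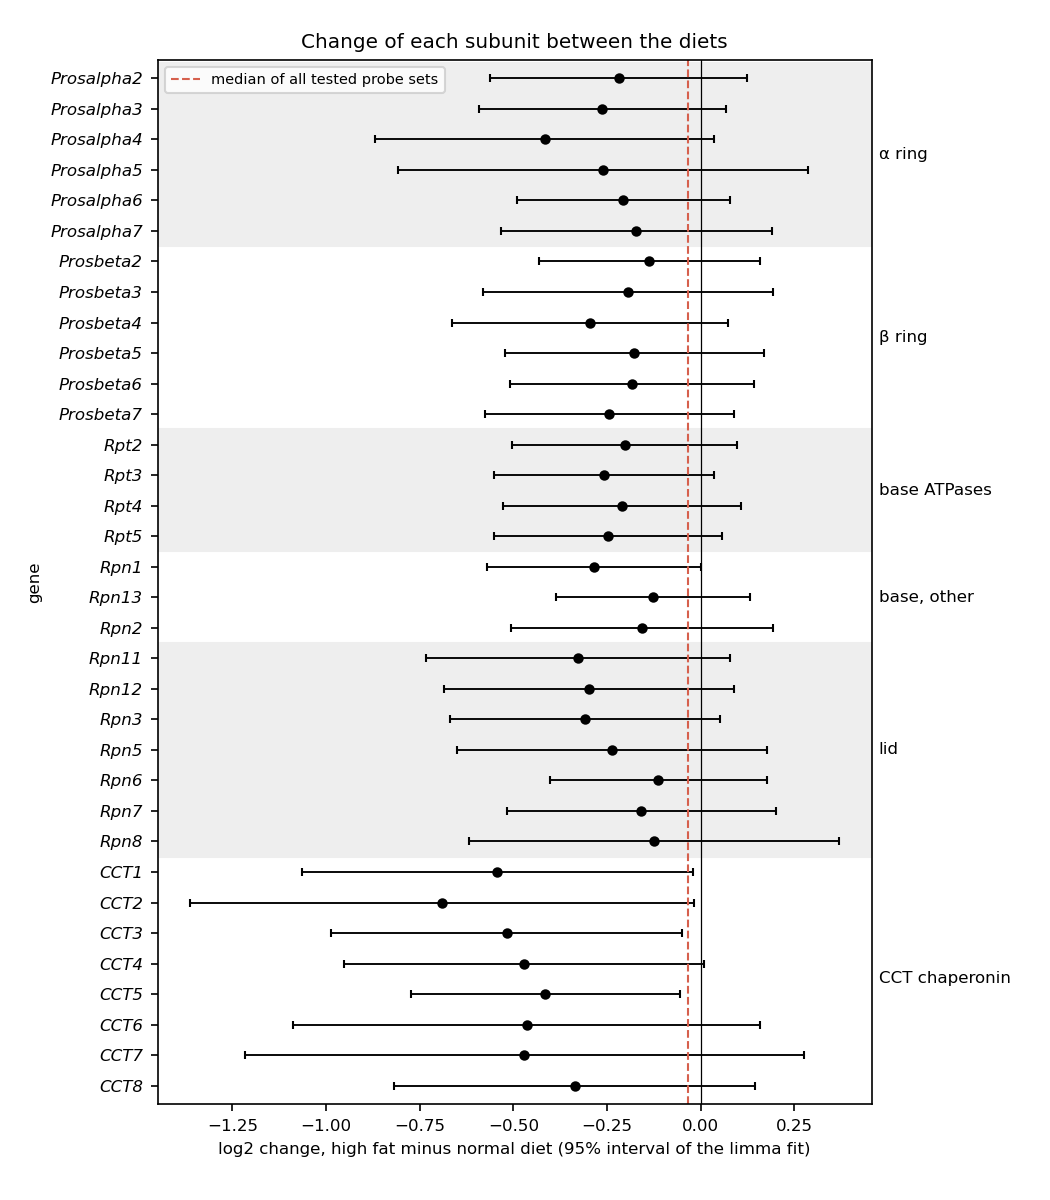
Log2 change of each constitutive proteasome and CCT subunit, high fat minus normal diet (x axis), with its unadjusted 95% interval from limma; the dashed line is the median of all tested probe sets, -0.03. All points lie below 0 in the values as deposited (with each array centred on its median, 20 proteasome subunits lie above it), the CCT points run from -0.69 to -0.34, and 4 CCT intervals exclude 0.

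The 14 paralogs were mostly dim, and their diets did not overlap in 4, with high fat higher in 3 (8.46% of all probe sets) and lower in 1. Rpn13R, a relative of the ubiquitin receptor Rpn13, was the 1 paralog above background on all 6 arrays, with 6.23, 5.70 and 6.13 on the high fat diet, against 5.97, 5.92 and 5.75 on the normal diet (0.14, SE 0.18, adjusted p = 0.812). Its diets overlapped. Prosbeta2R2 was above background on 5 arrays, with 5.76, 5.36 and 5.63 on the high fat diet, against 4.98, 3.39 and 5.04 on the normal diet, where replicate 2 was below background (1.11, SE 0.49, adjusted p = 0.610). Without normal diet replicate 2 its change was 0.57. Prosbeta2R1, above background on 1 high fat and 3 normal diet arrays, had 4.21, 3.66 and 5.33 on the high fat diet, against 5.05, 5.46 and 5.01 on the normal diet (-0.77, SE 0.46). Its change was -0.40 without high fat replicate 2 and -1.24 without high fat replicate 3. Neither of these 2 paralogs of the trypsin-like subunit passed the test.

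The remaining paralogs were at the edge of background or below it. Rpn12R was above background on 2 arrays, both high fat, with 4.43, 4.08 and 3.56, against 3.44, 3.15 and 0.13 on the normal diet. Prosalpha3T exceeded background on high fat replicate 2 alone, with 3.39, 4.08 and 3.93, against 3.50, 0.89 and 3.997 on the normal diet. Rpt4R exceeded it on high fat replicate 3 alone, with 4.34, 2.48 and 4.45, against 1.85, 1.52 and 4.42 on the normal diet. No ratio is given for these 3 genes, which were below background on most arrays. Prosbeta4R1 and Prosbeta4R2, which have 1 protein-coding gene between them in the reference annotation, were each above background on 1 array. Prosbeta4R1 had 2.88, 4.47 and 0 on the high fat diet, against 3.75, 3.85 and 1.88 on the normal diet. Prosbeta4R2 had 1.44, 2.80 and 4.07 on the high fat diet, against 2.63, 3.84 and 4.63 on the normal diet. The arrays of a diet thus differed from each other by more than the diets did.

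Below background on every array were 6 paralogs: Prosalpha4T1, Prosalpha4T2, Prosalpha6T, Prosbeta5R1, Prosbeta5R2 and Rpt3R. Both paralogs with an unadjusted p under 0.05 were among them, so that their differences lie within the range of background signal. Prosalpha4T2 had 2.21, 1.85 and 2.60 on the high fat diet, against 3.07, 3.49 and 3.83 on the normal diet (adjusted p = 0.559). Prosbeta5R2 had 0.89, 0.74 and 0.75, against 0.13, 0 and 0.47 on the normal diet (adjusted p = 0.610). Of 15 measured testis markers, 2 were above background on all 6 arrays and 7 on none, and their summed signal ranged from 268 to 319 on the high fat arrays and from 262 to 290 on the normal diet arrays.

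**Figure D4:**
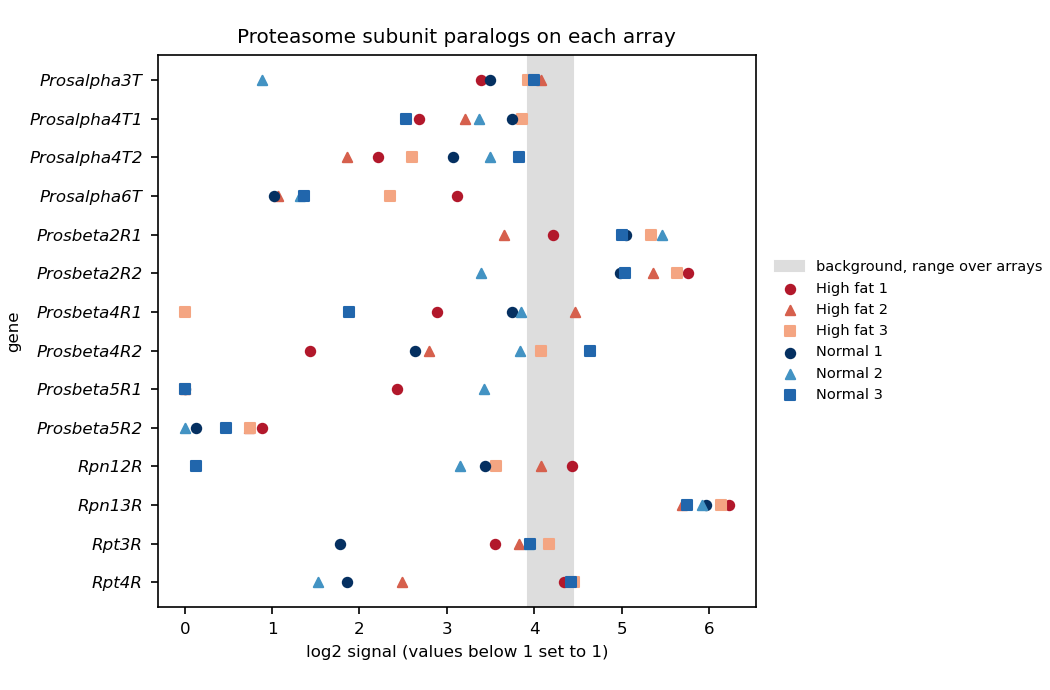
Log2 signal of the 14 proteasome subunit paralogs on each array (x axis), red for high fat and blue for normal diet, with the range of the array backgrounds in grey. Only Rpn13R lies to the right of the grey band on all 6 arrays, and most points lie in or left of it.

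Genes that assemble, regulate or deliver substrates to the proteasome were read from a separate list, of which 18 of 21 were measured. Limma called 0 of them; 11 had a lower and 7 a higher high fat mean, and the median change was -0.06. Uch-L5, the deubiquitinating enzyme bound by Rpn13, had 8.73, 8.64 and 8.74 on the high fat diet, against 9.40, 8.81 and 9.48 on the normal diet (-0.52, SE 0.21, adjusted p = 0.610). The ubiquitin shuttle Rad23 had 10.94, 10.60 and 10.83, against 11.22, 10.95 and 11.28 on the normal diet (-0.36, SE 0.16, adjusted p = 0.610). In both genes normal diet replicates 1 and 3 were the highest arrays. Chosen after their values were seen, the assembly factor Pomp was at -0.08 (SE 0.13) and Sem1, a small subunit of the lid, at -0.23 (SE 0.15). The transcription factor cnc, the fly member of the Nrf family that can induce proteasome genes, also chosen so, had 12.82, 10.96 and 12.84, against 12.66, 12.82 and 12.82 on the normal diet. The change of cnc was -0.56 (SE 0.55). Its low value stood on high fat replicate 2, the array with the high Act5C ratio, and a link between them was not tested. The list as drawn up also holds Prosap, which encodes a synaptic scaffold and has no known role in the proteasome.

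Ubiquitin genes and the enzymes that activate and attach ubiquitin had a median change of -0.04 over 16 of 20 listed genes, 9 lower and 7 higher, with 0 called. Usp5, which recycles ubiquitin chains, had 7.68, 7.76 and 7.72 on the high fat diet, against 7.94, 7.93 and 8.56 on the normal diet (-0.42, SE 0.21, adjusted p = 0.612). The ligase scaffold Cul3 was at -0.19 (SE 0.14), and its diets overlapped. The polyubiquitin gene Ubi-p63E, chosen after its values were seen, was at 0.12 (SE 0.12).

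Partners and substrates of the chaperonin were measured for 21 of 29 listed genes, with 16 lower, 5 higher, a median change of -0.15 and 0 called. The smallest p values were those of alphaTub67C and fzy. alphaTub67C, the maternal alpha tubulin, had 4.32, 5.06 and 4.30 on the high fat diet, against 10.13, 6.08 and 10.66 on the normal diet (-4.39, SE 1.29, adjusted p = 0.610). fzy, an activator of the anaphase promoting complex, was below background on all 3 high fat arrays and had 7.88, 4.16 and 9.19 on the normal diet, so that it was at least 7.25-fold lower in the high fat heads (adjusted p = 0.610). That bound, taken from the normal diet mean, was 3.49-fold without normal diet replicate 3 and 19.9-fold without normal diet replicate 2, whose own value lay below the high fat background of 4.22. Each had its lowest normal diet value on replicate 2, as the germ line markers osk and yl did. The prefoldin subunits, which hand substrates to CCT, were chosen after their values were seen. They had smaller changes, with Pfdn5 at -0.23 (SE 0.12), Pfdn2 at -0.27 (SE 0.16), Pfdn6 at -0.18 (SE 0.14), mgr at -0.18 (SE 0.14), Pfdn1 at -0.08 (SE 0.11) and Pfdn4 at -0.04 (SE 0.13).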

How the data were processed

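The deposited values are linear signal intensities, 1 column per array, made by the authors with Affymetrix Expression Console per the submitters' processing notes (version and summarisation method: not given in the sources used here). For each array the trimmed mean (2% off each end) was 500, as after a single scaling factor, while medians ranged from 59.0 to 86.2. Intensities below 1 were set to 1 (2010 values) and log2 values were computed. After removal of 183 control probe sets, 18769 remained and were fitted in R 4.3.3 by limma 3.58.1 (lmFit, eBayes; high fat minus normal diet), with Benjamini-Hochberg adjustment over all and a threshold of 0.05. Background was the 95th percentile, per array, of 50 controls that target proteins of other organisms. The reference annotation matched all 48 genes and changed 0 symbols; genes of the complexes without a probe set of their own symbol were not analysed here.

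Members and lists were chosen with earlier results of these data known, so counts and medians over them are descriptions. Values on every array are given for the 3 widest and the narrowest difference of each class, for genes with an unadjusted p under 0.05 and for paralogs above background on any array; of the 3 lists of related pathways, the 2 genes with the smallest p are named. Marker lists are given by counts and sums, and single markers were named after their values were seen. The alternatives were other normalizations, a pseudocount of 16, no dim probe sets, moderation with trend, gene averages over all probe sets, a replicate block, and arrays left out. The fit was tested on simulated data with planted changes larger than that of any proteasome, paralog or CCT gene here. That test does not show whether changes of their size would be called. Same-numbered arrays did not deviate together (correlations of -0.07 to 0.03), so the numbers were not taken as pairs.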

Additional observations from a re-analysis of the deposited data

How the results depend on the processing

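Over the alternatives tried, no proteasome or CCT gene passed the threshold. With every array centred on its own median, the median change was 0.23 over all probe sets, 0.054 for the proteasome (6 of 26 lower) and -0.20 for CCT. Centring moves all genes of an array alike, so the distance from the median of all probe sets is fixed by construction, at -0.18 for the proteasome and -0.44 for CCT. With quantile normalization that distance was -0.28 and -0.51. Without normal diet replicates 1 and 3 the medians were -0.086 and -0.13. That fit sets 3 arrays against 1, and the single array is taken to vary as the others do. Its medians are the differences from normal diet replicate 2 alone, given above. The arrays left out had the highest medians for both complexes, so smaller differences followed from the choice. Leaving out 1 array gave medians of -0.28 to -0.13 for the proteasome and -0.68 to -0.33 for CCT, the lowest without normal diet replicate 2 and the highest without normal diet replicate 3, with 26 of 26 and 8 of 8 lower each time. Calls over all probe sets numbered 7 with dim probe sets left out, 26 with trend and robust moderation and, over the arrays left out 1 at a time, 0 to 167, with 167 without normal diet replicate 2. There the smallest adjusted p of a member was 0.0824, for CCT2. Proteasome and CCT genes at an unadjusted p under 0.05 numbered 2 and 5 with the pseudocount, 8 and 5 with dim probe sets left out and 10 and 7 with trend and robust moderation. The replicate block gave 0 calls and changed no call. As each replicate number is on both diets, its medians of -0.21 and -0.47 equal those of the main fit by construction.

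Under the alternatives other than median centring, single genes changed sign in 16 of 610 cases, none of them called. Many of these cases could not change sign. Moderation with trend, the replicate block, the gene averages and the removal of dim probe sets leave each member's log2 change as it was. Median centring, which raised every change by 0.269, turned 20 of 48: Prosalpha2 (0.050), Prosalpha3 (0.0060), Prosalpha5 (0.0081), Prosalpha6 (0.062), Prosalpha7 (0.10), Prosbeta2 (0.13), Prosbeta3 (0.075), Prosbeta5 (0.092), Prosbeta6 (0.085), Prosbeta7 (0.025), Rpt2 (0.066), Rpt3 (0.010), Rpt4 (0.059), Rpt5 (0.021), Rpn13 (0.14), Rpn2 (0.11), Rpn5 (0.032), Rpn6 (0.16), Rpn7 (0.11) and Rpn8 (0.14). Without normal diet replicates 1 and 3 they were Prosalpha5 (0.17), Prosalpha7 (0.020), Rpn5 (0.019), Rpn7 (0.036), Rpn8 (0.26), CCT6 (0.020), CCT7 (0.14), Prosalpha4T1 (-0.12) and Rpt3R (-0.092). With 1 array left out only dim paralogs changed sign, with ranges of -1.14 to 0.81 for Prosbeta5R1, -0.31 to 0.32 for Prosalpha4T1, -1.72 to 0.52 for Prosbeta4R1 and -0.097 to 0.99 for Rpt3R. The cause was not tested.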
